A study of Mus musculus with 2 samples.

Results

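The genes described here are 10 markers of dendritic cells and macrophages: Itgam, Itgax, Lyz2, Fcer1g, Csf1r, Cd68, Tyrobp, Siglech, Clec9a and Flt3. They were taken by symbol from the gene table, in which all 10 had a row among 23997. The table compares 1 library of medullary thymic epithelial cells (mTECs) labelled WT with 1 labelled Aire-/-, called the Aire-KO library below. Both came from pooled C57BL/6 mice, and sorting selected cells with high surface MHC class II. The labels used here give neither the pool size nor the age, the sex or the exact Aire allele. No treatment is named in the labels.

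Dendritic cells and macrophages are myeloid cells of the thymus. Dendritic cells present self-antigens to developing T cells, partly antigens handed over by mTECs, and macrophages clear dying thymocytes. The 10 genes cover several functions. Itgam and Itgax encode integrin chains, Tyrobp and Fcer1g signalling adaptors, Csf1r and Flt3 growth factor receptors, and Lyz2 and Cd68 lysosomal or secreted proteins. Siglech and Clec9a encode receptors that mark plasmacytoid dendritic cells and cross-presenting conventional dendritic cells (cDC1). Some of these genes are also transcribed outside myeloid cells. A bulk library cannot tell fewer cells of a type from less RNA per cell.

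Levels are given as FPKM, a fragment count scaled by transcript length and library size, so that genes can be compared per length. In each pair of values the WT library comes before the Aire-KO library. A gene was called lower or higher in the Aire-KO library when log2((Aire-KO FPKM + 0.1)/(WT FPKM + 0.1)) passed 2-fold and the mean of both libraries was 0.5 FPKM or more. Genes that reach this mean are referred to as measured. A gene can reach it through 1 library alone, which favours a call of lower or higher. The rule sorts genes by the size of the difference only: with 1 library per genotype no spread can be estimated, so nothing was tested. Percentages of the WT level are plain ratios of FPKM, and their 95% intervals come from estimated fragments and cover counting error only.

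The sorted identity was visible in both libraries. All 17 mTEC genes were measured, none was lower and 1, Aire itself, was higher (220.6 and 640.2 FPKM). The epithelial gene Epcam stood at 363 and 296 FPKM. Aire RNA therefore does not check the label, and directions below are by library label. Estimated fragments in genes numbered 44010000 and 55760000. Of 15906 measured genes, 20.5% were lower and 7.09% higher, with a median log2 ratio of 0.05.

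Of the 10 markers, 8 were measured, and 5 of them were lower: Itgam, Itgax, Tyrobp, Csf1r and Flt3. None was higher. Lyz2, Fcer1g and Cd68 were neither, and Siglech and Clec9a were below the minimum in both libraries. The 5 of 8 stand beside a background of 20.5% lower, and the 0 higher beside 7.09%. Itgax reached the minimum only through the WT library (1.10 and 0.120 FPKM), which favours its call of lower. The median log2 ratio of the 8 was -1.22. The 3 most abundant markers were the ones within 2-fold, and the 5 next in abundance were all lower. The ratios spanned a wide range, from 6.53% of the WT level for Itgam to 144.8% for Fcer1g, and these intervals did not overlap (5.48% to 7.70% and 135.2% to 155.1%).

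**Figure D1:**
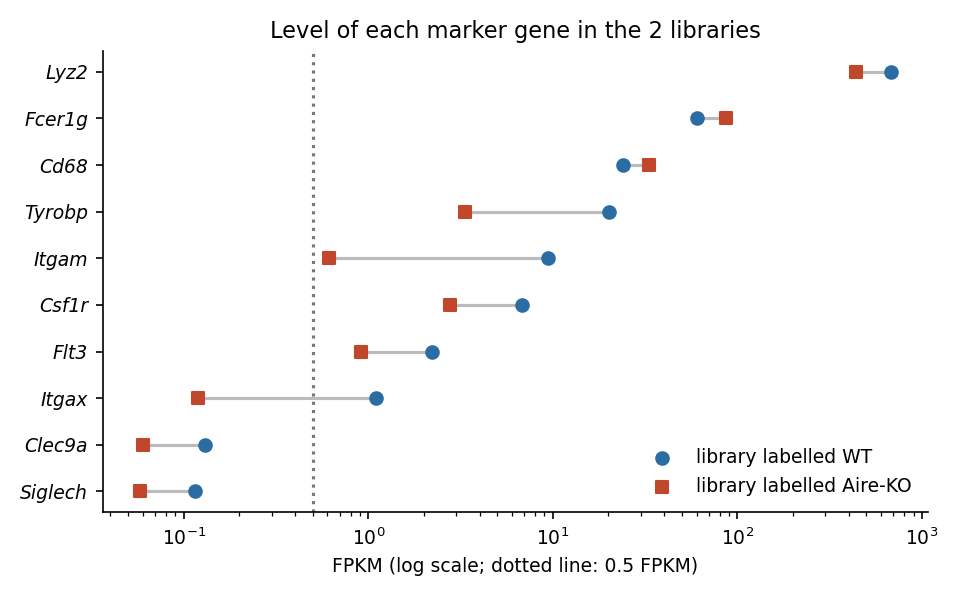
FPKM of each of the 10 marker genes on a log axis, with a circle for the WT library and a square for the Aire-KO library, ordered by the WT level. Lyz2, Fcer1g and Cd68 sit above 24 FPKM in both libraries with their symbols close together, while the symbols of Itgam, Itgax and Tyrobp lie far apart.

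The order of levels was partly rearranged. In the WT library it ran Lyz2, Fcer1g, Cd68, Tyrobp, Itgam, Csf1r, Flt3, Itgax, Clec9a and Siglech. In the Aire-KO library Itgam dropped from 5th to 7th place, below Csf1r and Flt3. All neighbours from Lyz2 to Itgax had separate counting intervals, except Tyrobp and Csf1r in the Aire-KO library (2.59 to 4.28 and 2.53 to 2.99 FPKM). Lyz2 ranked 83rd of 23992 genes in the WT library and 153rd in the Aire-KO library.

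The integrin chain gene Itgam had the lowest ratio of the measured markers. Itgax was close to Tyrobp with the pseudocount of 0.1 (log2 ratios of -2.45 and -2.56). Without a pseudocount Itgax was lower (-3.20 and -2.59), with overlapping counting intervals. Itgam (chromosome 7, 128062640 to 128118491, mm10) encodes CD11b, the alpha chain of a complement receptor on macrophages, monocytes and some dendritic cells. It stood at 9.40 and 0.614 FPKM, from about 1999 and 150 fragments, a log2 ratio of -3.74. The Aire-KO value was well below the WT value. Itgax (chromosome 7, 128129568 to 128150657) encodes CD11c, the alpha chain used to define dendritic cells. It stood at 1.10 and 0.120 FPKM, from about 201 and 25 fragments, a log2 ratio of -2.45. That is 10.9% of the WT level (6.83% to 16.4%), near the 6.53% of Itgam, whose interval overlaps it.

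Itgam and Itgax are neighbours, separated by 11076 bp, and are followed after another 23275 bp (RefSeq coordinates) by the related alpha chain gene Itgad. Itgad stood at 1.06 FPKM in the WT library and was listed at 0 in the Aire-KO library. All alpha integrin genes of this cluster were thus low or listed at 0 in the Aire-KO library. Cox6a2, a cytochrome oxidase subunit gene beside Itgad, stood at 2.15 and 2.23 FPKM. Within 150 kb of the Itgam start 10 genes were measured and 5 were lower, beside 20.5% of all genes. These counts include Itgam, Itgax and Itgad themselves, and the other lower genes were Prss8 and Trim72. Itgax, Itgad and Trim72 (0.868 and 0.136 FPKM) reached the minimum only through the WT library, which favours a call of lower. Pycard, an inflammasome adaptor gene upstream of Itgam, stood at 40.1 and 28.6 FPKM. Lower genes and genes within 2-fold thus alternated along this stretch.

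**Figure D2:**
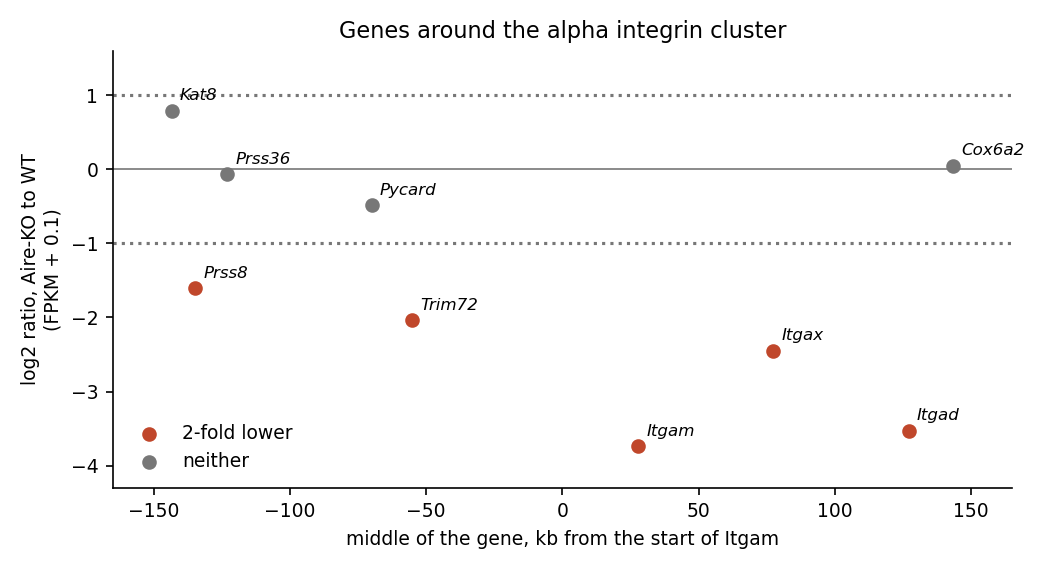
Log2 ratio of FPKM + 0.1, Aire-KO to WT, for 9 of the 10 measured genes around the alpha integrin cluster, against the distance in kb of each gene's middle from the start of Itgam. Red points (2-fold lower) include Itgam, Itgax and Itgad, and grey points (within 2-fold) include Pycard and Cox6a2. Itgad is listed at 0 in the Aire-KO library, so its height depends on the pseudocount.

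The common beta chain, Itgb2, was lower as well (3.95 and 1.03 FPKM). Itgal, the alpha chain that lymphocytes use with it, was within 2-fold (11.97 and 6.80 FPKM). As a result Itgam stood at 2.38 times the FPKM of Itgb2 in the WT library and 0.593 times in the Aire-KO library, whereas Itgal went from 3.03 to 6.57 times. Of the 6 integrin partner genes, all measured, 3 were lower (Itgb2, Itgad and the adhesion ligand gene Icam2, 3.54 and 0.797 FPKM) and none higher. Over all genes 20.5% were lower. Icam1, a ligand of these integrins, was abundant and within 2-fold (303 and 496 FPKM).

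Upstream sequences are shown for Itgam and Itgax, because these neighbours were lower together, and for Cd68, which was not lower. Spi1, the ETS-family regulator of many myeloid genes, was itself lower (8.29 and 0.682 FPKM). ETS factors bind around a GGAA core, so GAGGAA and GGAAGT were searched on both strands of the 250 bases before the start site (RefSeq promoter table, GRCm38.p6). Such promoters were given for 8 of the 10 markers. Capitals mark the matches. Bases run up to the start site, or for Itgax up to the outermost RefSeq start of the gene.
Itgam, chr7:128062390-128062639, plus strand: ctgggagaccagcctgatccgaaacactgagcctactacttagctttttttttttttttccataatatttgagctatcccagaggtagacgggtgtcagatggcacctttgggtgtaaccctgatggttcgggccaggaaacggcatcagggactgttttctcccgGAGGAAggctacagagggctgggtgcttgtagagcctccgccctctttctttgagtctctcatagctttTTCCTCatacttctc
Itgax, chr7:128129300-128129525, plus strand: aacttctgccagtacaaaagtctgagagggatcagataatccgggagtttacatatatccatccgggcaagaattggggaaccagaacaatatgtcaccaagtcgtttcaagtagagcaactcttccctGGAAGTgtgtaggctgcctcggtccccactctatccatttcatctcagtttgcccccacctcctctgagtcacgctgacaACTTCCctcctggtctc
Cd68, chr11:69666171-69666420, minus strand: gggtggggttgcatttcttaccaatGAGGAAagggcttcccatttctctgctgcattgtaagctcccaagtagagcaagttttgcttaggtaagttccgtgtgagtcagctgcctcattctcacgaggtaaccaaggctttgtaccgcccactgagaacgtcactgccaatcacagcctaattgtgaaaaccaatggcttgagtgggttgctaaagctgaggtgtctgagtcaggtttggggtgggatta

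GAGGAA was found in 2 of the 8 promoters, Itgam and Cd68, and in 23.3% of all 32851 promoters. GGAAGT was found in 4 of the 8, Itgax, Lyz2, Siglech and Flt3, and in 19.7% of all promoters. In Itgam the matches began at positions -84 and -15, counted from the start site. In Cd68 the match began at -225. In Itgax they began at -121 and -41 from the start site of the promoter table, which lies beyond the end of the stretch printed. Matches occurred in markers that were lower and in markers that were not, and they are descriptions of the letters only.

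The adaptors Tyrobp and Fcer1g went in different directions. Both encode small membrane proteins with an immunoreceptor tyrosine-based activation motif (ITAM), which couple receptors without a signalling tail to Syk-family kinases. Tyrobp (chromosome 7, 30413788 to 30417579), also called DAP12, stood at 20.2 and 3.35 FPKM, with a log2 ratio of -2.56 and 16.6% of the WT level (12.5% to 21.6%). Fcer1g (chromosome 1, 171229572 to 171234349), the Fc receptor gamma chain, stood at 60.2 and 87.2 FPKM, with a log2 ratio of 0.53. Tyrobp was thus clearly lower in the Aire-KO library and Fcer1g modestly above its WT value, within 2-fold. The FPKM of Fcer1g was 2.97 times that of Tyrobp in the WT library and 26.0 times in the Aire-KO library. Hcst, the adaptor gene 132 bp from Tyrobp, stood at 3.996 and 2.44 FPKM and was within 2-fold.

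Receptors that pair with these adaptors were mostly scarce. Of 20 adaptor and partner genes besides Tyrobp and Fcer1g, 7 were measured, 5 lower and 1 higher, with a median log2 ratio of -2.64. Over all genes 20.5% were lower and 7.09% higher. The measured partners of Tyrobp, Trem2 and Siglec15, differed in direction. Trem2, a lipid-sensing receptor of macrophages, stood at 9.31 and 1.20 FPKM, and Siglec15, a sialic acid receptor of osteoclasts, at 1.255 and 10.1 FPKM. Below the minimum, the partners Trem1 (0.624 and 0.0258 FPKM) and Clec5a (0.747 and 0.0206 FPKM) had lower Aire-KO values too. The 3 measured partners of the gamma chain were lower although the chain itself was not, and its other partners in the list were below the minimum. The low-affinity IgG receptor gene Fcgr3 stood at 8.13 and 1.22 FPKM, and Fcer1a, the IgE-binding chain, at 7.10 and 0.108 FPKM. Clec4n, a fungal sugar receptor, stood at 1.85 and 0.172 FPKM. Of the 13 partner genes below the minimum, 6 were listed at 0 in the Aire-KO library and 1 of those in the WT library too.

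Downstream of the ITAM, 5 of 12 measured signalling genes were lower and none higher, with a median log2 ratio of -0.64. Among all genes 20.5% were lower. Fgr, a Src-family kinase gene of myeloid cells, stood at 7.11 and 0.797 FPKM. Vav1, an exchange factor of haematopoietic cells, stood at 21.6 and 6.78 FPKM, and the scaffold gene Lcp2 at 4.37 and 1.05 FPKM. Within 2-fold were Syk, the kinase that binds phosphorylated ITAMs (14.1 and 19.3 FPKM), Src (42.2 and 73.9 FPKM) and the scaffold gene Blnk (87.8 and 145 FPKM). The kinase Syk was therefore at least as abundant in the Aire-KO library, while the myeloid kinase gene Fgr was not. Inhibitory receptors, which oppose ITAM signals, were lower in 7 of 8 measured genes (median log2 ratio -1.86). Examples were Sirpa, which binds CD47 (10.6 and 2.79 FPKM), Lilrb4 (2.76 and 0.278 FPKM) and Cd33 (0.984 and 0.0398 FPKM). Of these examples, Lilrb4 and Cd33 reached the minimum only through the WT library. Siglece, at 4.15 and 2.08 FPKM, went the same way but narrowly missed the 2-fold rule (log2 ratio -0.97).

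**Figure D3:**
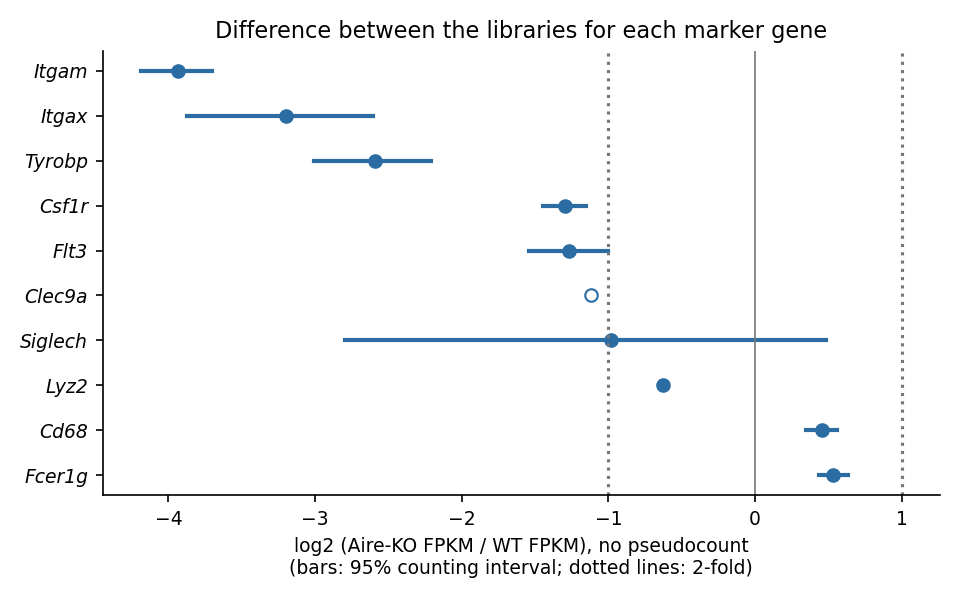
Log2 ratio of FPKM, Aire-KO to WT, without a pseudocount, for each of the 10 marker genes, with bars for the 95% counting interval where fragments could be estimated (the bar of Lyz2 is narrower than its point, and the open circle of Clec9a has none). Itgam, Itgax and Tyrobp lie beyond -2, Csf1r and Flt3 close together near -1.3, and Cd68 and Fcer1g above 0.

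The growth factor receptors were lower to a like degree. Csf1r (chromosome 18, 61105572 to 61131139), the receptor that macrophages need to survive, stood at 6.77 and 2.75 FPKM, with a log2 ratio of -1.27. Flt3 (chromosome 5, 147330742 to 147400489), the receptor of dendritic cell progenitors, stood at 2.20 and 0.915 FPKM, with a log2 ratio of -1.18. They were at 40.7% (36.7% to 45.0%) and 41.6% (34.4% to 49.9%) of the WT level, with overlapping intervals. The FPKM of Csf1r was 3.08 times that of Flt3 in the WT library and 3.01 times in the Aire-KO library, so the pair kept nearly the same proportion. Both were reduced less than Itgam, Itgax and Tyrobp, whose intervals lay entirely below theirs.

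Ligands of these receptors differed from one another. Csf1, the main ligand of Csf1r, stood at 14.5 and 12.6 FPKM, and Flt3l, the ligand of Flt3, at 30.2 and 25.7 FPKM, both within 2-fold. Il34, the other ligand of Csf1r, was lower (5.51 and 2.42 FPKM). The FPKM of Flt3l was 13.7 times that of its receptor in the WT library and 28.1 times in the Aire-KO library. Of 9 measured growth factor and receptor genes, 2 were lower (Il34 and Csf2, 22.9 and 8.98 FPKM) and 1 was higher, the Kit ligand gene Kitl (4.63 and 10.9 FPKM). The share lower, 22.2%, was near the 20.5% of all genes. The median log2 ratio of this list was -0.23.

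The lysosomal and secreted markers stayed within 2-fold. Lyz2 (chromosome 10, 117277541 to 117282272), the lysozyme of macrophages, stood at 675.5 and 436.4 FPKM, with a log2 ratio of -0.63 and 64.6% of the WT level (63.6% to 65.6%). Cd68 (chromosome 11, 69664213 to 69666170), a heavily glycosylated lysosomal protein, stood at 24.1 and 33.1 FPKM, with a log2 ratio of 0.46 and 137.3% (127.0% to 147.2%). Lyz2 was thus below and Cd68 above its WT value, each beyond counting error. The FPKM of Cd68 was 3.56 times that of Csf1r in the WT library and 12.03 times in the Aire-KO library. In the lysosomal list 2 of 13 genes were lower, Lyz1 and the protease gene Ctsd (267 and 63.5 FPKM), and none was higher. Npc2, a cholesterol carrier (672 and 872 FPKM), and the protease gene Ctss (227 and 380.2 FPKM) were abundant and within 2-fold. The list's median log2 ratio was -0.23, and its share lower was 15.4%, beside 20.5% of all genes.

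Lyz2 and Lyz1, the lysozyme of intestinal Paneth cells, lie side by side with 5522 bp between them, yet their values diverged. Lyz1 stood at 635.3 and 91.9 FPKM, with a log2 ratio of -2.79. In the WT library the FPKM of Lyz2 was 1.06 times that of Lyz1, and in the Aire-KO library 4.75 times. Of the 1217 windows of 100 bases in the Lyz2 transcript, 24 (1.97%) occur exactly in the Lyz1 transcript. Windows that match with a mismatch were not counted, so the share of reads that fit both transcripts is not known. How the authors' tool assigned such reads was not tested. The last 120 bases before the start sites are shown because these paralogs have similar upstream sequences and different ratios. They are identical at 111 of 120 positions (92.5%), compared without gaps, and capitals mark the positions that differ.
Lyz2, chr10:117282273-117282392, minus strand: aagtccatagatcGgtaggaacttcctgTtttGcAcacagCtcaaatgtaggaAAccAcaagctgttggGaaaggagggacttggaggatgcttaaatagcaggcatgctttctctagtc
Lyz1, chr10:117292869-117292988, minus strand: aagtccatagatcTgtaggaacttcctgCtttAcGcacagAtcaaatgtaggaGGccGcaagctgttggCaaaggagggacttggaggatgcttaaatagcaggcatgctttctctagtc

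The receptors of dendritic cell subsets were close to the detection limit in both libraries. Siglech (chromosome 7, 55768178 to 55778833), a receptor of plasmacytoid dendritic cells, stood at 0.115 and 0.0580 FPKM, from about 11 and 6 fragments. Its Aire-KO value was 50.6% of the WT level, with an interval from 14.4% to 139.8%, so no difference was detectable at this depth. Clec9a (chromosome 6, 129408862 to 129424764), the receptor by which cDC1 recognise dead cells, stood at 0.130 and 0.0598 FPKM. Nearly all of it (99.995% and 99.989%) was assigned to NM_001205365, whose linked transcript of 446 bp is too short for a fragment estimate. A count of 0 fragments would allow up to 0.0351 and 0.0305 FPKM for a transcript of 2000 bp (3 counts), and the limit is higher for shorter transcripts. Siglech, with a transcript of 2138 bp, lay above this limit in both libraries. The limit for the short transcript of Clec9a was not estimated, so its values cannot be told from 0.

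Wider lists of dendritic cell genes were uneven, beside 20.5% lower and 7.09% higher over all measured genes. In the plasmacytoid list 7 of 10 measured genes were lower and 1 was higher (median log2 ratio -1.56). Ly6c2, a surface antigen also found on monocytes, stood at 31.7 and 0.439 FPKM, the kallikrein gene Klk1 at 314 and 32.7 FPKM, and the nucleic acid sensor gene Tlr9 at 6.63 and 17.3 FPKM. In the cDC1 list 2 of 7 were lower and 1 higher (-0.52), with Wdfy4, needed for cross-presentation, at 3.21 and 1.10 FPKM and Cadm1 at 8.13 and 11.3 FPKM. In the list of conventional type 2 dendritic cells (cDC2) 4 of 5 were lower (-2.84). There the lectin gene Mgl2 stood at 5.68 and 0.0802 FPKM, and Cd209a at 2.91 FPKM and listed at 0. In the list of mature dendritic cells 3 of 13 were lower and 1 higher (-0.03). The chemokine gene Ccl22 stood at 240.2 and 42.2 FPKM, the cytokine subunit gene Il12b at 2.74 and 0.145 FPKM and the actin-bundling gene Fscn1 at 151 and 350.4 FPKM. The abundant genes of the mature list are also transcribed by mTECs. The shares lower of the cDC1 and mature lists, 28.6% and 23.1%, were not far from that of all genes.

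Most measured genes of the macrophage and monocyte lists were lower, beside 20.5% of all genes. Of 17 measured macrophage genes 13 were lower and 1 higher (median log2 ratio -1.48). Emr1, which encodes the F4/80 antigen, stood at 4.63 and 0.312 FPKM, the endotoxin co-receptor gene Cd14 at 59.9 and 5.57 FPKM and the scavenger receptor gene Marco at 7.60 and 0.549 FPKM. The 1 higher gene was the receptor kinase gene Axl (29.1 and 63.1 FPKM), while the adhesion gene Vcam1 was within 2-fold (141 and 163 FPKM). The summed level of the list was 756.9 and 433.0 FPKM, and 1 and 3 of its 22 genes were listed at 0. Of 14 measured monocyte and granulocyte genes 11 were lower and none higher (-3.07), with the peroxidase gene Mpo at 21.5 and 0.241 FPKM and the antimicrobial gene Camp at 75.5 and 4.69 FPKM. Their summed level was 1625 and 218.6 FPKM. The largest contributors were S100a8 (781 and 87.0 FPKM), S100a9 (343 and 13.9 FPKM) and Plac8 (284 and 36.2 FPKM). Chil3 (19.7 and 28.1 FPKM) and Mmp9 (31.4 and 44.6 FPKM) stood above their WT values, within 2-fold. How far cells of these types in the sort account for the values of the 10 markers was not tested.

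**Figure D4:**
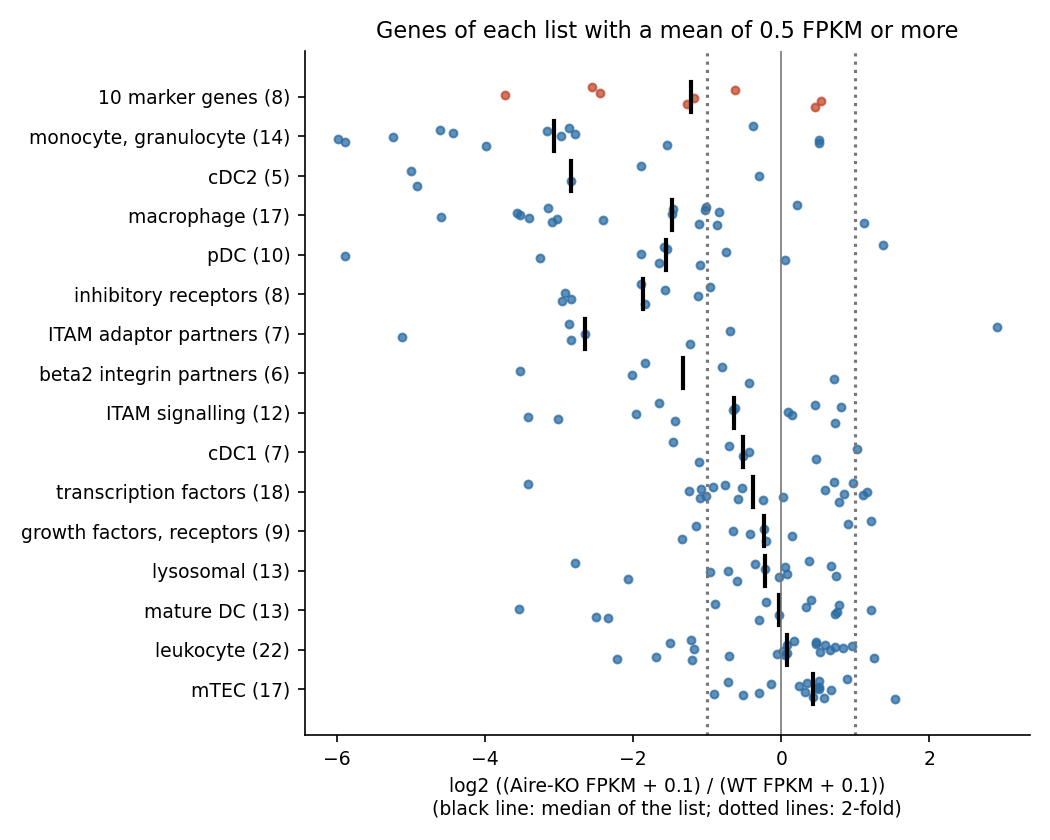
Log2 ratio of FPKM + 0.1, Aire-KO to WT, for every measured gene (points, number in parentheses) of the 10 markers (red) and 15 further lists (blue), with a black line at each list's median. The markers spread from -3.74 to 0.53. The monocyte, cDC2, macrophage, pDC, inhibitory receptor, ITAM partner and integrin partner medians lie below -1, as does that of the markers. The leukocyte and mTEC medians lie above 0. Genes listed at 0 in the Aire-KO library are placed by the pseudocount.

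Transcription factors and general leukocyte genes did not follow one direction. Of 18 myeloid transcription factor genes 5 were lower and 2 higher (median log2 ratio -0.39), beside 20.5% and 7.09% of all genes. Spi1 had the lowest ratio (-3.42), followed by Klf4 (114 and 48.1 FPKM), whereas Irf8, needed for cDC1 and plasmacytoid cells, stood at 147 and 328 FPKM and Ikzf1 at 16.5 and 35.5 FPKM. Of 22 leukocyte genes 6 were lower and 1 higher, with a median log2 ratio of 0.07. The shares lower of these lists, 27.8% and 27.3%, were not far from that of all genes. Ptprc, the CD45 gene, stood at 1.95 and 0.626 FPKM, close to Flt3 and far below the most abundant genes of the same list. Srgn, which encodes a granule proteoglycan, stood at 2444 and 2744 FPKM, and Cd52 at 2437 and 2528 FPKM. Lcp1, an actin-bundling gene, stood at 198 and 327 FPKM. Some widely used leukocyte genes were thus abundant in both libraries at low Ptprc.

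Taking the 14 wider myeloid lists as 1 set without the 10 markers, 158 of 191 matched genes were measured. Of these 72 (45.6%) were lower and 9 higher, beside 20.5% and 7.09% of all genes, with a median log2 ratio of -0.78. By the distance between their pairs of log2(FPKM + 0.1) values, the genes of that set nearest to Itgam were Spi1 (0.22) and Marco (0.33). Nearest to Csf1r were the transmembrane glycoprotein gene Gpnmb (0.24) and the ITAM-bearing Cd247 (0.27), and nearest to Cd68 the maturation marker Cd83 (0.26) and the receptor gene Kit (0.35). Tyrobp had no gene closer than the complement genes C1qc (0.64) and C1qa (0.66), at 18.3 and 2.15 FPKM and at 18.6 and 2.10 FPKM. These distances rest on 2 libraries only.

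Lists of other cell types that a thymic sort could hold were mixed, beside 20.5% lower and 7.09% higher over all genes. Of 14 measured thymocyte genes 5 were lower and 1 higher, and their summed level was 44.9 and 26.2 FPKM. Of 8 measured B cell genes 1 was lower and 1 higher, and of 8 measured genes of stroma and endothelium 2 were lower and 1 higher. Of 3 measured red cell genes 2 were lower, and of 6 cortical epithelial genes 1 was lower. Of 8 chemokine genes known to attract dendritic cells or their progenitors 4 were lower and none higher. Among them were Xcl1, the ligand of the cDC1 receptor Xcr1 (28.8 and 0.111 FPKM), and Ccl2 (75.6 and 18.7 FPKM), whereas Ccl19, a ligand of Ccr7, stood at 189 and 167 FPKM. Their part in the marker values was not tested.

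Only 3 of the 10 markers had several transcripts in the isoform table. Of the Itgam transcripts, NM_008401 made up 57.7% of the gene in the WT library and 79.8% in the Aire-KO library, with FPKM of 5.42 and 0.490. NM_001082960 made up the rest at 3.98 and 0.124 FPKM, so both were lower in the Aire-KO library. Of Cd68, the coding transcript NM_001291058 made up 84.1% and 88.8%, and the noncoding NR_110993 15.9% and 10.7%. These shares carry an error of splitting reads between overlapping transcripts that was not measured. In the authors' deposited table none of the 10 markers was called, and q ranged from 0.526 for Itgam to 0.9988 for Clec9a. Those values compare 2 libraries and not 2 genotypes.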

How the data were processed

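RNA of sorted mTECs was sequenced in 1 library per genotype (paired-end, stranded poly-A kit, per the labels' protocols). The submitters' processing notes name TopHat2, Cuffdiff and build mm10. No version, annotation or way of scaling the libraries to each other is given in those notes. The authors deposited FPKM per gene (23997 rows) and per isoform (33295 rows), with a p-value and a q-value of their own, quoted only as theirs. Ratios were recomputed from FPKM with Python 3.11.15, numpy 2.4.6, pandas 2.3.3 and scipy 1.17.1. The 5 rows with status HIDATA have no estimate and were left out, which leaves 23992. Another 27 symbols stand as dates, none of them a gene named here.

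Fragments were estimated from the low values. FPKM times the transcript length (GENCODE M21, through RefSeq links) less 210 bp fell on steps of 0.02095 and 0.0182 for single-isoform transcripts of 2000 bp or more. Of 190 and 461 values up to 5 fragments, 77.9% and 78.3% lay within 0.1 of a whole multiple; the steps were fitted to these same values, so this does not test them. Transcripts under 500 bp got no estimate, and those of Tyrobp and Fcer1g (564 and 674 bp) are the least certain. Intervals are exact conditional binomial for ratios and exact Poisson for levels. Without molecular identifiers, several fragments can stem from 1 molecule. The step fit and size rule were tested on simulated data for transcripts of 2000 bp or more. Those data were drawn from the same step model, with planted changes and counting error only. They cannot test shorter transcripts or the spread between animals.

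Of 274 list genes, 271 matched a row. Named genes are all 10 markers, Aire, up to 4 genes per list with the largest ratio and up to 4 with the highest mean, and the nearest 2 genes of each marker. Ligands, receptor partners, neighbours and a few further list genes (such as Syk, Epcam, Lcp1 and C1qa) were named after their values were seen. Members and lists were chosen with earlier results of these data known. Alternatives were other pseudocounts, minimums, scalings, fold rules and isoform sums. Some genes are not reported here.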

Additional observations from a re-analysis of the deposited data

How the results depend on the processing

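No paired analysis was possible because each genotype has 1 library and the labels give no replicate numbers; for the same reason no replicate could be left out. All 50 ratios of single markers under another pseudocount, scaling or isoform sum kept their sign. A pseudocount cannot change a sign, and the isoform sums gave the same ratios, so only the scalings could have changed one. The count of 5 lower markers became 3 with a pseudocount of 1, 3 of 6 with a minimum mean of 2 FPKM and 3 by a 4-fold rule. Over all genes the shares lower under these settings were 15.2%, 14.3% and 11.9%. No marker was higher under any alternative, beside 0.629% (4-fold rule) to 19.3% (1.5-fold rule) of all genes. The median of the markers, -1.22, became -0.82 with a pseudocount of 1, -0.90 without a minimum (10 genes) and -0.95 at 2 FPKM (6 genes). For the wider myeloid lists the 72 lower genes became 39 of 158 by a 4-fold rule, beside 11.9% of all genes. The 9 higher became 27 by a 1.5-fold rule and 1 by a 4-fold rule, beside 19.3% and 0.629% of all genes. Their median of -0.78 became -0.62 with a pseudocount of 1, -0.97 without a minimum, -0.59 at 2 FPKM and -1.07 on a TPM scale, where more genes pass the minimum. A pseudocount of 1 moves Itgax to -0.91 and Flt3 to -0.74, because it is near their FPKM. Depth limits Siglech and Clec9a.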
